A study of Mus musculus with 5 samples.

Results

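Collagen gene expression was compared between colon tumors of Control mice and of mice that express human SIGLEC12 in the intestinal epithelium. A gene was a member if its symbol was Col, a type number, the letter a and a chain number, as in Col1a1. The expression table held 45 such rows among 52143, and 44 genes remained once Col4a6, listed in 2 rows with the same values, was counted once. By collagen type, 11 genes were fibrillar, 6 were basement membrane (type IV) and 27 were other collagens. The samples were tumors of 2 Control mice (replicates 1 and 4) and 3 SIGLEC12 mice (replicates 2, 3 and 4).

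Control animals were littermates with Villin1-Cre-ERT alone, a tamoxifen-inducible Cre recombinase under the promoter of Villin1, which is active in intestinal epithelium. SIGLEC12 animals (SIGLEC12-Villin1-Cre-ERT) carried in addition 1 floxed allele of human SIGLEC12, inserted at ROSA26 and silent until Cre removes a floxed EGFP stop in front of it. All animals were female and 8 weeks old at the start, and all received tamoxifen (10 mg/ml) for 5 days. Each was then injected with the carcinogen azoxymethane (AOM) at 10 mg/kg. Repeated cycles followed, each of dextran sodium sulfate (DSS, which injures the colon epithelium) at 2.0% over 5 days and then a recovery period of 14 days, and tumors were taken on day 87. The Villin1 promoter limits the model to epithelial cells, so fibroblasts and vessels were not meant to express the transgene. Human SIGLEC12 RNA was not analysed here, so the genotype labels were not checked against it.

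Collagens are triple helices of 3 alpha chains, each chain from its own gene. Fibrillar collagens, made mainly by fibroblasts, form the fibers of the stroma, with types I and III the bulk and type V a minor partner that controls fiber width. Type IV forms the sheet-like network of basement membranes under epithelia and around vessels and muscle. Type VI forms beaded filaments near cell surfaces, type XII coats fibrils, and types XV and XVIII lie at basement membranes. Types VII and XVII anchor stratified epithelium: type XVII is a transmembrane protein of hemidesmosomes, and type VII makes the anchoring fibrils beneath them. In colon tumors collagens are best known as products of the stroma around the cancer cells.

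Sequence around the start of a few genes is shown first, because the results turn on these genes. Col4a1 and Col4a2 encode the 2 chains of the common type IV molecule and start from opposite strands of 1 shared promoter. On GRCm38 (GENCODE release M21) Col4a1 lies on the minus strand of chromosome 8 from 11198423 to 11312826, and Col4a2 on the plus strand from 11312805 to 11449287. The annotated genes overlap by 22 bases, shown in capitals within 30 bases of the plus strand, chr8:11312801-11312830.
Col4a1 and Col4a2 starts: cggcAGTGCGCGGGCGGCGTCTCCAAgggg
Col3a1 (chromosome 1, 45311538 to 45349706, plus strand) and Col17a1 (chromosome 19, 47646344 to 47692094, minus strand) had the 2 highest means over the 5 tumors, 6.88 and 6.74 TPM, and opposite directions. In both Controls Col17a1 was the more abundant of the pair. The 150 bases upstream of each are given 5′ to 3′ on the strand of the gene, chr1:45311388-45311537 for Col3a1 and chr19:47692095-47692244 for Col17a1. Capitals mark TATAAA, the only motif of the 3 searched that lies in these stretches.
Col3a1: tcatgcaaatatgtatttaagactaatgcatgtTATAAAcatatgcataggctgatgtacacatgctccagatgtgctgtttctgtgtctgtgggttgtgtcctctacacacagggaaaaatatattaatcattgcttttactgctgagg
Col17a1: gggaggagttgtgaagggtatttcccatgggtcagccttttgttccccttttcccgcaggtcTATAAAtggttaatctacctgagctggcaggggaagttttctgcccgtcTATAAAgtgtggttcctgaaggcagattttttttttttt

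These sequences are RefSeq promoter windows on GRCm38.p6, which matched 35 of the 44 symbols with 38 windows. The motifs searched, on both strands of the 250 bases before each RefSeq start, were the TATA box core (TATAAA), the CCAAT box and the GC box core (GGGCGG), none of which holds another. TATAAA was in 5 of the 38 collagen windows and in 12.4% of 32851 windows of all genes. CCAAT was in 13 collagen windows and 33.8% of all, and GGGCGG in 22 and 32.7%. The TATAAA of Col3a1 begins 117 bases before its RefSeq start, and those of Col17a1 begin 140 and 91 bases before its RefSeq start. For Col17a1 the stretch printed above ends at the GENCODE start, which leaves out the 52 bases before the RefSeq start (47692042). The Col4a1 and Col4a2 windows held no TATAAA, and each held CCAAT or its complement. A match is a description of the letters and not of factor binding.

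The tumors differed in make-up before any collagen was considered. All values are log2(TPM + 1) as deposited, or TPM where so named. TPM, the transcript abundance unit of the table, is an abundance per length relative to all RNA of the sample, so it can be set side by side between genes. Protein-coding genes took 5.70% and 6.73% of the TPM total in Control and 8.74% to 9.71% in SIGLEC12. The median difference over all 10338 tested genes was 0.38 higher in SIGLEC12, and 0.01 once TPM was scaled so that protein-coding genes had the same total in every tumor, called rescaled below. Rescaled differences are therefore given as well. Control replicate 1 stood apart: its 8 markers of columnar epithelium, the kind that lines the colon, summed to 266 TPM against 819 to 1545 in the other 4 tumors. Its 10 squamous epithelium markers, such as the keratin gene Krt14, summed to 2756 TPM against 438 to 977. The largest parts of that sum were Krt14, Krt5 and Krt6a, at 1144, 595 and 574 TPM. Not every marker was high in this tumor: Krt4 was lowest there, at 18.75 TPM, and Krt13 was highest in SIGLEC12 replicate 2. Squamous keratins are not typical of colon epithelium, and their source was not tested. In SIGLEC12 replicate 2, the mean level of 8 fibroblast markers was 1.83, against 0.65 to 1.30 in the other tumors. That of 7 smooth muscle markers was 3.86 in this sample and 2.70 to 2.92 in the rest. In bulk tumor RNA, more cells of a type and more RNA per cell cannot be told apart.

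Only 11 of the 44 collagen genes were abundant enough to be tested, at a TPM of at least 1 in at least 2 samples. They were Col1a1, Col1a2 and Col3a1 of the fibrillar class, Col4a1 and Col4a2 of type IV, and Col6a1, Col6a2, Col6a3, Col12a1, Col17a1 and Col18a1 of the others. Each had at least 1 Control and 1 SIGLEC12 sample at that level. Col4a1 and Col3a1 showed the largest upward differences and Col17a1 the only downward one. With limma and Benjamini-Hochberg adjustment over all 10338 genes, 0 of the 11 met the threshold of 2-fold with an adjusted p under 0.05, whether higher or lower. The count over all tested genes was also 0 (0.0%) higher and 0 (0.0%) lower, with a smallest adjusted p of 0.0974. At an unadjusted limma p of at most 0.05 and 2-fold, Col3a1 and Col4a1 were higher, against 3.97% of all genes, and Col17a1 was lower, against 0.445%. Col4a1 met that threshold under each alternative run, while Col3a1 and Col17a1 each missed it under some. Without the fold criterion Col4a2 was also higher, which makes 3 of 11 against 33.4% of all genes, and Col17a1 remained the only lower one, against 0.909%. Groups did not overlap, with SIGLEC12 higher, for Col3a1, Col4a1 and Col4a2, while 54.1% of all genes had that pattern. With SIGLEC12 lower the count was 0, against 1.67%. After rescaling, Col3a1 and Col4a1 still had every SIGLEC12 sample above both Controls, against 15.7% of all genes, and Col17a1 had every one below, against 16.8%.

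**Figure D1:**
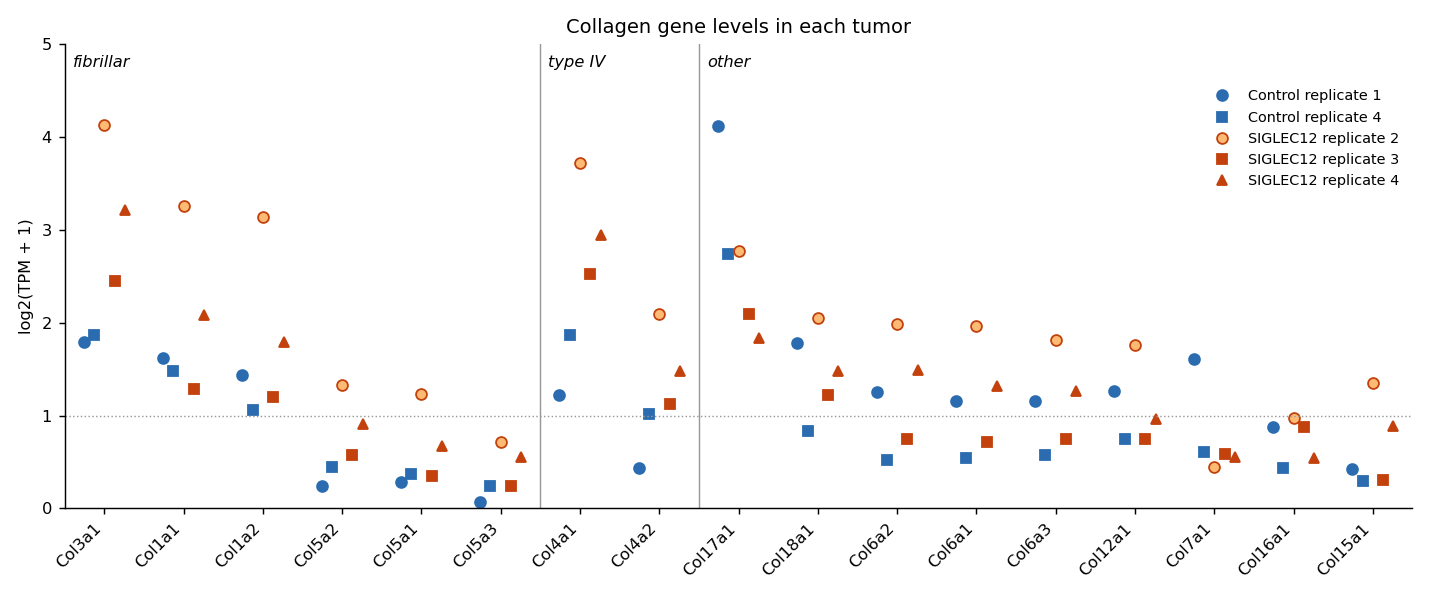
Levels of 17 collagen genes in each tumor, on the vertical axis as log2(TPM + 1), with genes ordered by class and then by mean TPM. Each point is 1 tumor, blue for Control and orange for SIGLEC12, and the pale orange circles of SIGLEC12 replicate 2 lie highest for every fibrillar and type IV gene shown, while Control replicate 1 lies highest for Col17a1 and Col7a1. The dotted line marks a TPM of 1.

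The fibrillar class was led by Col3a1, the single chain of type III collagen. Its level was 1.79 and 1.87 in Control replicates 1 and 4, and 4.13, 2.45 and 3.22 in SIGLEC12 replicates 2, 3 and 4. All 3 SIGLEC12 tumors lay above both Controls, and replicate 2 lay far above the rest. The difference was 1.43 (SE 0.46, limma adjusted p = 0.104, unadjusted p = 0.0183), and the exact permutation p over the 10 possible assignments was 0.2, where 0.1 is the smallest possible. After rescaling it was 0.997, and without SIGLEC12 replicate 2 it was 1.002 as deposited (limma adjusted p = 0.223).

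Type I collagen, the main fiber of most connective tissue, did not separate the groups. Col1a1 (chromosome 11, 94936224 to 94953042, plus strand) was at 1.62 and 1.48 in Control and at 3.26, 1.28 and 2.08 in SIGLEC12 replicates 2, 3 and 4. The lowest and the highest of the 5 values were both from SIGLEC12 tumors. The difference of 0.66 (SE 0.53, limma adjusted p = 0.370) was below the SD of 0.995 among the SIGLEC12 samples (n = 3). It shrank to 0.13 without SIGLEC12 replicate 2 and to 0.27 after rescaling. Col1a2 (chromosome 6, 4504814 to 4541544, plus strand), the partner chain, was at 1.44 and 1.06 in Control and at 3.14, 1.20 and 1.80 in SIGLEC12. As for Col1a1, replicates 2 and 4 were the highest, while replicate 3 lay between the Controls here. The difference was 0.79 (SE 0.53, limma adjusted p = 0.297), 0.43 after rescaling and 0.25 without SIGLEC12 replicate 2.

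The chains of type V collagen were low and did not reach the filter. Col5a2 was at 0.24 and 0.44 in Control and at 1.33, 0.57 and 0.91 in SIGLEC12, without overlap (exact permutation p = 0.2). Col5a1, at 0.28 and 0.37 in Control, was at 1.24, 0.34 and 0.67 in SIGLEC12, with replicate 3 within the Control values. Col5a3 stood at 0.07 and 0.24 in Control and at 0.72, 0.24 and 0.55 in SIGLEC12. In all 3 genes SIGLEC12 replicate 2 was the highest and replicate 4 the next. The remaining 5 fibrillar genes were lower still: Col27a1 reached 0.123 TPM at most, and Col11a1, Col11a2 and Col24a1 reached 0.0502, 0.0456 and 0.0372 TPM. Col2a1, the collagen of cartilage, reached 0.00156 TPM.

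Summed over its 11 genes, the fibrillar class came to 6.84 and 6.49 TPM in Control and to 36.7, 8.24 and 16.1 TPM in SIGLEC12 replicates 2, 3 and 4. SIGLEC12 replicate 2 thus carried more fibrillar collagen RNA than the other 2 SIGLEC12 tumors together. The ratio of the geometric means of the groups was 2.54, a log2 difference of 1.35. It was 0.79 after rescaling, 0.79 without SIGLEC12 replicate 2, and 0.21 with both. Over the 3 tested fibrillar genes the median difference was 0.79, or 0.25 without SIGLEC12 replicate 2, and over all 11 it was 0.35, with 9 higher and 2 lower. Most fibroblast markers were also highest in SIGLEC12 replicate 2. Of the 8, 5 could be tested (Dcn, Vim, Thy1, Dpt and Pdgfra). All 5 were highest in SIGLEC12 replicate 2 and had every SIGLEC12 sample above both Controls. These patterns were found in 22.8% and 54.1% of all genes. Thy1, Dpt and Pdgfra passed the filter through SIGLEC12 tumors alone, which favors such patterns. Of the untested markers, Pdgfrb did the same as these 5, while Lum and Fap overlapped between groups and Fap was highest in SIGLEC12 replicate 4. On the rescaled values Thy1, Dpt and Pdgfrb overlapped too. The list summed to 5.51 and 10.2 TPM in Control and 19.1 to 43.2 TPM in SIGLEC12. None of the 8 was at 0 in every tumor, and the part of fibroblast content in the collagen levels was not tested.

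**Figure D2:**
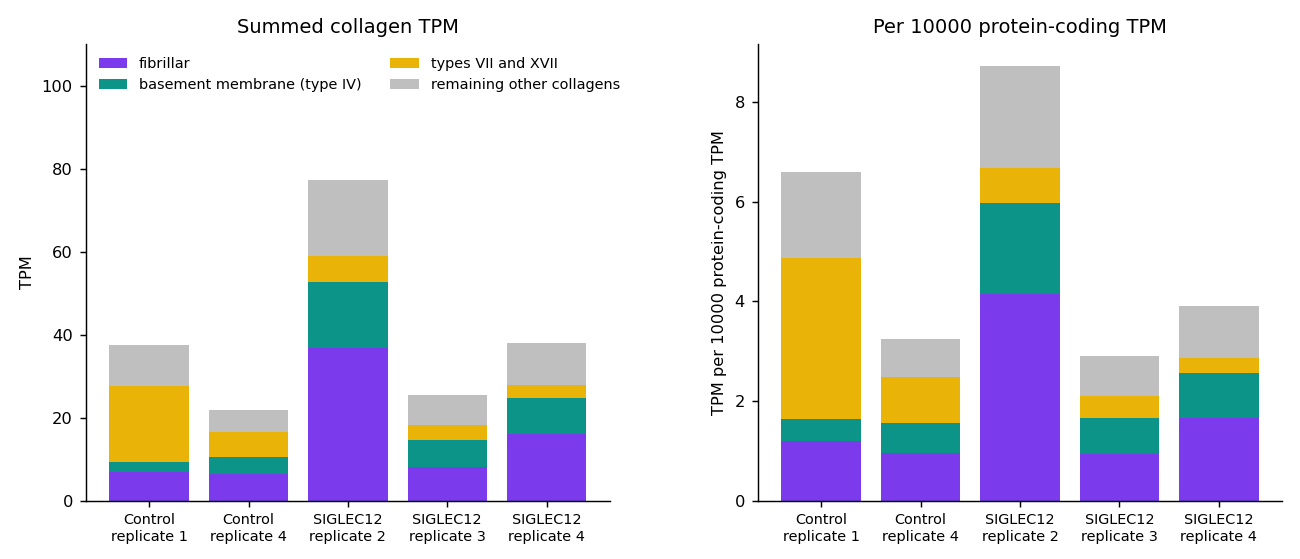
Summed TPM of the collagen classes in each tumor (left) and the same per 10000 TPM of protein-coding genes (right), as stacked bars that start at 0. SIGLEC12 replicate 2 has the tallest bar in both panels, and types VII and XVII make up 18.4 TPM of Control replicate 1 and 3.04 to 6.21 TPM of the other tumors.

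Type IV differed most of the 3 classes with all 5 tumors, and less than the fibrillar class without Control replicate 1 (1.28 against 1.38 on the log2 scale of the summed TPM). Col4a1 was at 1.22 and 1.87 in Control and at 3.72, 2.53 and 2.94 in SIGLEC12 replicates 2, 3 and 4. Every SIGLEC12 tumor exceeded both Controls, and the SIGLEC12 values without replicate 2 stayed above them. The difference was 1.52 (SE 0.38, limma adjusted p = 0.0974, unadjusted p = 0.00622), with an exact permutation p of 0.1, the smallest possible. It was 1.12 after rescaling and 1.19 without SIGLEC12 replicate 2. Col4a2, the other chain of the same molecule and the gene across the shared promoter shown above, was at 0.44 and 1.02 in Control and at 2.09, 1.13 and 1.48 in SIGLEC12. It kept the order of Col4a1 over the 5 tumors, although SIGLEC12 replicate 3 exceeded Control replicate 4 by little. Its difference of 0.84 (SE 0.32) had a limma adjusted p of 0.130 and an exact permutation p of 0.2. On the rescaled values it was 0.58, and there the groups overlapped.

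The minor type IV chains did not share this pattern. Col4a5 was at 0.61 and 0.18 in Control and at 0.52, 0.32 and 0.18 in SIGLEC12, and Col4a3, Col4a6 and Col4a4 reached at most 0.158, 0.153 and 0.0252 TPM. Head-to-head pairing with a neighbor is common to all 6 genes: Col4a3 and Col4a4 lie 71 bases apart on chromosome 1, and Col4a5 and Col4a6 lie 1308 bases apart on chromosome X. The class sum was 2.53 and 3.96 TPM in Control and 16.1, 6.35 and 8.79 TPM in SIGLEC12 replicates 2, 3 and 4, a ratio of 3.05 between geometric means. On the log2 scale this was 1.61, or 1.06 after rescaling, 1.24 without SIGLEC12 replicate 2, and 0.67 with both. The median of the 2 tested genes was 1.18, but over all 6 it was -0.02, with 3 higher and 3 lower. Markers of endothelium, a source of vascular basement membrane, were low in every tumor, and 0 of 7 reached the filter. Their sum was 1.11 TPM in each Control and 5.39, 2.38 and 3.12 TPM in SIGLEC12 replicates 2, 3 and 4, and their part in the type IV levels was not tested.

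As a share of all collagen TPM in a tumor, which does not depend on the total RNA, fibrillar genes made up 18.2% and 29.6% in Control and 32.4% to 47.5% in SIGLEC12. Type IV made up 6.73% and 18.1% in Control and 20.9% to 25.0% in SIGLEC12. Other collagens made up 75.1% and 52.3% in Control and 31.6% to 42.6% in SIGLEC12. Types VII and XVII alone made up 48.9% and 28.4% in Control and 8.01% to 14.8% in SIGLEC12, so the shares of the other classes depend on them. Without type XVII, the other collagens made up 31.6% and 26.3% of all collagen TPM in Control and 24.1% to 29.8% in SIGLEC12, which overlap. With 5 samples and shares that sum to the whole, these are given as a description.

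**Figure D3:**
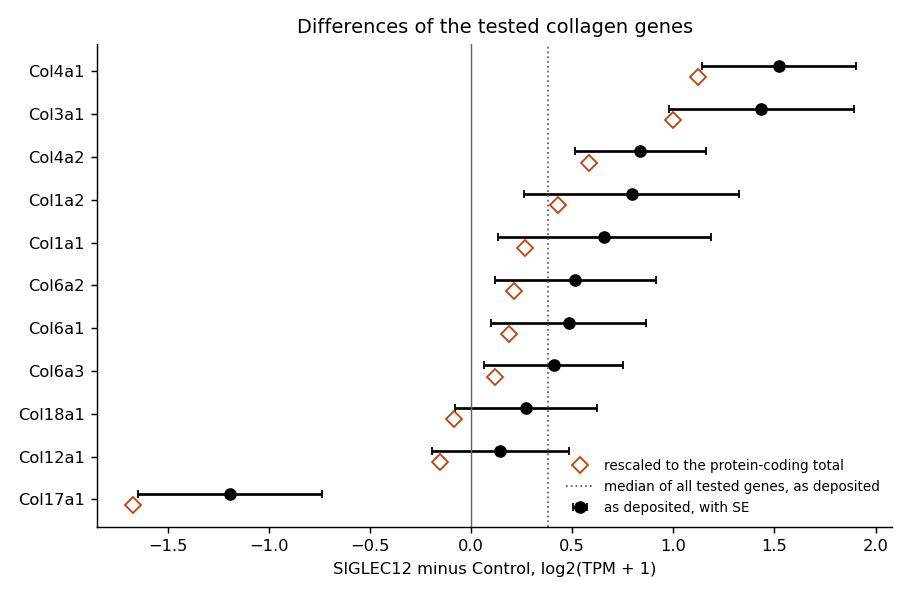
Differences between SIGLEC12 and Control in log2(TPM + 1) for the 11 tested collagen genes, as deposited with SE (filled circles) and after rescaling (open diamonds), with the median of all tested genes (0.38) as a dotted line. Col4a1, Col3a1 and Col4a2 lie above that median by more than 1 SE and Col17a1 lies below 0 on both scales, while Col12a1 and Col18a1 change sign on rescaling.

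Chains that assemble into 1 molecule were compared by the ratio of their TPM within each tumor, and those of types I and VI stayed near fixed proportions. The TPM ratio of Col1a1 to Col1a2 was 1.21 and 1.64 in Control and 1.10, 1.10 and 1.31 in SIGLEC12, where the protein has 2 chains of the first to 1 of the second. Col6a1 to Col6a2 ranged from 0.83 to 1.06 and Col6a3 to Col6a1 from 0.86 to 1.07, where the protein holds the chains in equal parts. Col4a1 to Col4a2 ranged from 2.57 to 4.03, with 4 of the tumors between 3.73 and 4.03. Col5a1 to Col5a2 ranged from 0.55 to 1.22. For these pairs the exact permutation p between groups lay between 0.2 and 0.6. Col8a1 and Col8a2 were too low for a ratio, at no more than 0.245 and 0.0172 TPM. Ratios across types, which were outside the plan for chains of 1 molecule, moved more. Their group differences follow from those of the single genes and are no separate result. Col3a1 to Col1a1 was 1.19 and 1.49 in Control and 1.93, 3.11 and 2.57 in SIGLEC12, without overlap (exact permutation p = 0.2). SIGLEC12 replicate 2, the richest in both genes, had the smallest of the 3 SIGLEC12 ratios. Col1a1 to Col4a1 was 1.57 and 0.67 in Control and 0.70, 0.30 and 0.48 in SIGLEC12, with overlap (exact permutation p = 0.3).

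**Figure D4:**
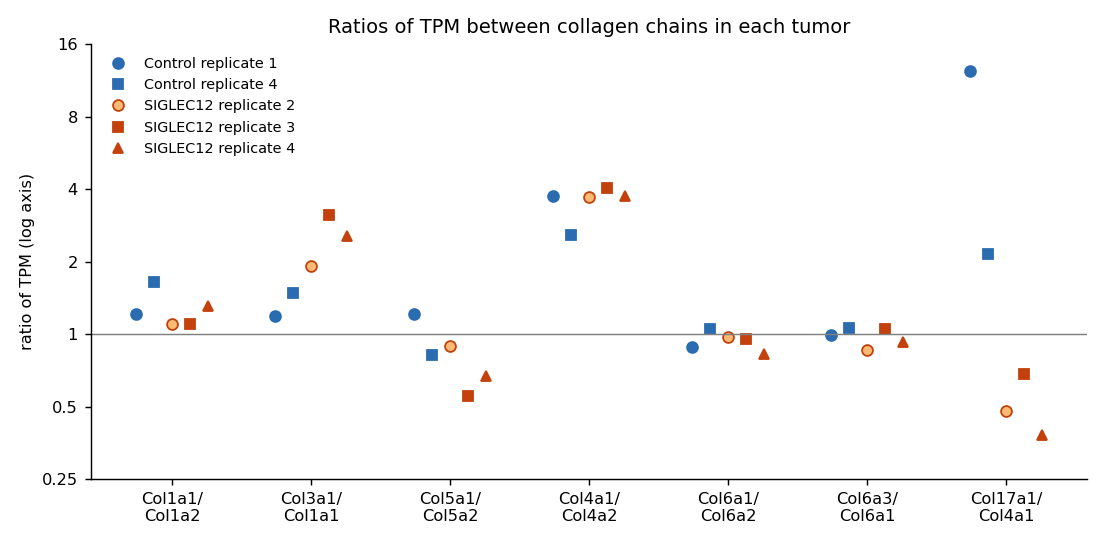
Ratio of TPM between pairs of collagen genes in each tumor, on a log axis, with a line at 1. The type I, VI and IV pairs stay within narrow ranges, and Col3a1 to Col1a1 is higher in every SIGLEC12 tumor than in both Controls. Col17a1 to Col4a1 spans 0.38 to 12.3, but it sets the only downward tested gene against the most upward one. Pairs across types are not partner chains.

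The filament and fibril-associated collagens differed less between groups than between tumors of 1 group. Col6a1, Col6a2 and Col6a3 (type VI, beaded filaments) were at 1.16, 1.26 and 1.15 in Control replicate 1 and at 0.55, 0.52 and 0.58 in Control replicate 4. In SIGLEC12 replicates 2, 3 and 4, Col6a1 was at 1.96, 0.72 and 1.32, Col6a2 at 1.99, 0.74 and 1.48, and Col6a3 at 1.81, 0.75 and 1.26. Each of the 3 genes had its highest value in SIGLEC12 replicate 2 and its lowest in Control replicate 4, and the groups overlapped. The differences were 0.48, 0.52 and 0.41, and after rescaling 0.19, 0.21 and 0.12 (limma adjusted p as deposited from 0.355 to 0.390). They were 0.17, 0.22 and 0.14 without SIGLEC12 replicate 2, and 0.18, 0.15 and 0.12 without Control replicate 4. Other omissions raised them, to 0.79, 0.88 and 0.69 without Control replicate 1, and to 0.79, 0.85 and 0.67 without SIGLEC12 replicate 3. Col12a1, a fibril-associated collagen, was at 1.27 and 0.74 in Control and at 1.75, 0.74 and 0.96 in SIGLEC12. Its difference of 0.15 (SE 0.34, limma adjusted p = 0.753) turned to -0.15 after rescaling and to -0.16 without SIGLEC12 replicate 2. Col16a1, of the same family and under the filter, was at 0.88 and 0.43 in Control and at 0.97, 0.88 and 0.54 in SIGLEC12, and its groups overlapped.

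Col18a1, the type XVIII chain of basement membranes whose cut end is endostatin, was at 1.79 and 0.83 in Control and at 2.05, 1.23 and 1.48 in SIGLEC12. The Control values spanned most of the SIGLEC12 range. The difference was 0.27 (SE 0.35, limma adjusted p = 0.567) and -0.08 after rescaling. Col15a1, its close relative, was at 0.42 and 0.30 in Control and at 1.35, 0.31 and 0.89 in SIGLEC12, again with replicates 2 and 4 above the rest.

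Col17a1, the hemidesmosome collagen, ran the other way. It was at 4.11 in Control replicate 1 and 2.74 in Control replicate 4, and at 2.77, 2.09 and 1.84 in SIGLEC12 replicates 2, 3 and 4. Control replicate 1 stood alone at 16.3 TPM against 5.69 in the other Control and 2.57 to 5.84 in SIGLEC12, and SIGLEC12 replicate 2 lay just above Control replicate 4. The difference was -1.19 (SE 0.46), with a limma adjusted p of 0.127, an unadjusted p of 0.0371 and an exact permutation p of 0.3. On the rescaled values it was -1.67 and the groups no longer overlapped (exact permutation p = 0.1, the smallest possible). The Controls decided its size: without Control replicate 1 it was -0.51 (limma adjusted p = 0.494), and without Control replicate 4 it was -1.88 (limma adjusted p = 0.0432). In each of these fits the lone Control is assumed to vary like the other samples.

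Col7a1, the anchoring fibril chain that works beside type XVII, reached a TPM of 1 in a single tumor and was not tested. It was at 1.61 in Control replicate 1 and 0.60 in Control replicate 4, and at 0.45, 0.58 and 0.55 in SIGLEC12. All 3 SIGLEC12 tumors were below both Controls (exact permutation p = 0.1, the smallest possible), although replicate 3 was just below Control replicate 4. Types VII and XVII together came to 18.4 and 6.21 TPM in Control and to 6.21, 3.77 and 3.04 TPM in SIGLEC12, or 48.9% and 28.4% of collagen TPM against 8.01% to 14.8%. The mean level of the 10 squamous markers was 6.47 and 5.20 in Control and 5.52, 4.76 and 4.97 in SIGLEC12. Of the 10, 2 had every SIGLEC12 sample below both Controls, Dsg3 and Trp63, against 1.67% of all genes. After rescaling Krt6a, Krt10 and Krt1 did so as well, which makes 5 of 10 against 16.8% of all genes. Krt4 alone was higher in SIGLEC12, by 0.97 as deposited and 0.43 after rescaling. None of the 10 was at 0 in any group. Their part in the Col17a1 and Col7a1 levels was not tested. Without type XVII, the sum of the other collagens was 11.9 and 5.76 TPM in Control and 18.6, 7.57 and 10.5 TPM in SIGLEC12, a log2 difference of 0.46, but -0.09 after rescaling and 0.11 without SIGLEC12 replicate 2. With type XVII the class differed by -0.25, by -0.80 after rescaling and by -0.59 without SIGLEC12 replicate 2, and by 0.40 without Control replicate 1, so neither sum had a stable direction.

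**Figure D5:**
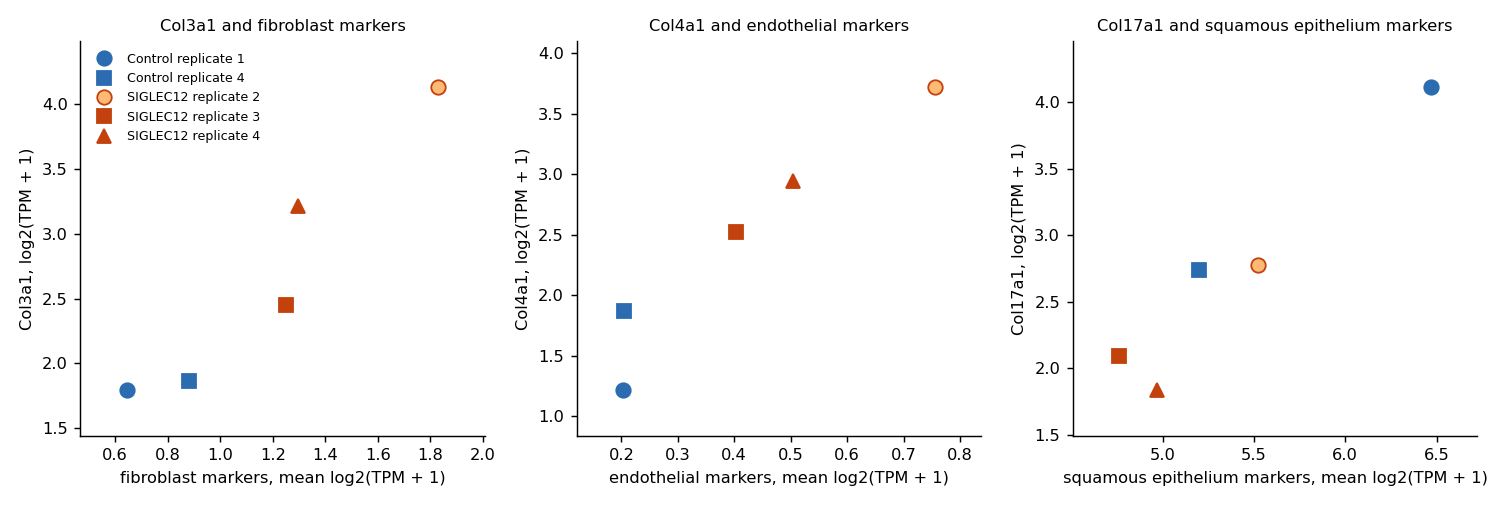
Level of Col3a1, Col4a1 and Col17a1 in each tumor (vertical axes) beside the mean level of fibroblast, endothelial and squamous epithelium markers (horizontal axes), all as log2(TPM + 1), 1 point a tumor. SIGLEC12 replicate 2 has the highest Col3a1 and fibroblast level (4.13 and 1.83) and Control replicate 1 the highest Col17a1 and squamous level (4.11 and 6.47).

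SIGLEC12 replicate 2 had the highest value of the 5 tumors for 10 of the 11 tested collagen genes, all but Col17a1. Over all tested genes this sample was highest for 22.8%. After rescaling it was highest for 9, without Col18a1, against 15.7% of all genes. Control replicate 1 was highest for Col17a1 alone, against 5.58%. In TPM, SIGLEC12 replicate 2 exceeded the next tumor 3.16 times for Col1a2, 2.66 times for Col1a1 and 2.29 times for Col5a1, which were the only members at 2 times or more. Col3a1 stood at 1.995 times (16.5 against 8.29 TPM) and Col6a1 at 1.94 times, just under that line. For Col4a1, Col4a2 and Col6a3 the ratios were 1.82, 1.83 and 1.80. This tumor also had the highest level of all 7 smooth muscle markers, and the part of muscle in its collagen RNA was not tested.

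The 33 collagen genes under the filter were accounted for by their highest level. Beside Col5a1, Col5a2, Col15a1 and Col7a1, which passed a TPM of 1 in 1 tumor each, 15 stayed under 0.1 TPM in every tumor and none was listed at 0 throughout. Between these limits, Col14a1, a fibril-associated chain, reached 0.470 TPM, Col26a1 0.373, Col9a3 0.368, Col6a4 0.328, Col9a2 0.265, Col23a1 0.201 and Col28a1 0.157 TPM. The transmembrane genes Col13a1 and Col25a1 reached 0.0516 and 0.0651 TPM, and Col10a1, the collagen of growth plate cartilage, 0.0797 TPM. Col6a5, Col6a6, Col9a1, Col19a1, Col20a1 and Col22a1 reached 0.0451, 0.0543, 0.0176, 0.00510, 0.0581 and 0.0710 TPM. Cartilage and bone markers were likewise low, with 7 of 8 under 1 TPM in every tumor. Apart from Col5a1, Col5a2, Col15a1 and Col7a1, the genes named here were too low for their differences to be read.

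Genes that make, process, degrade or bind collagen were compared from 6 lists, in which 0 tested genes passed an adjusted p under 0.05. Beside each count of non-overlapping genes stands the 54.1% of all genes given above, or 15.7% on the rescaled values. Of 10 tested genes for modification and folding of collagen chains, 8 were higher and 2 lower. Among them 6 did not overlap with SIGLEC12 higher, and the median difference was 0.45, or 0.08 after rescaling. On the rescaled values only P4hb, Ppib and Colgalt1 did not overlap. P4hb, the beta subunit of prolyl 4-hydroxylase and also a general protein disulfide isomerase, was at 4.54 and 4.55 in Control and at 5.49, 5.68 and 5.84 in SIGLEC12. Its difference of 1.12 (SE 0.23, limma adjusted p = 0.0974) passed the unadjusted threshold with 2-fold, and was 0.59 after rescaling. Ppib, a proline isomerase, and Mia3, needed to export procollagen, differed by 0.96 and 0.64, and by 0.43 and 0.14 after rescaling. Serpinh1, the collagen chaperone HSP47, differed by 0.12, turned to -0.27 after rescaling, and was highest in SIGLEC12 replicate 2 and Control replicate 1.

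Collagen processing genes were low, and 3 of 11 could be tested. The differences were 0.26 for Pcolce, 0.87 for the cross-linking enzyme gene Loxl2 and 0.31 for Bmp1. Loxl2 and Bmp1 did not overlap, but both passed the filter through SIGLEC12 tumors alone, which favors that pattern. After rescaling the 3 differences were -0.03, 0.69 and 0.08, and only Loxl2 did not overlap. The list on collagen breakdown had 6 tested genes, the proteases Mmp2, Mmp13 and Mmp14 and the protease inhibitors Timp1, Timp2 and Timp3. All 6 were higher, 5 of them without overlap (all but Timp2), with a median of 0.82, and 0.49 after rescaling. Of the 5, Mmp2 and Timp1 passed the filter through SIGLEC12 tumors alone. On the rescaled values only Mmp13 and Timp1 did not overlap. Mmp13, an interstitial collagenase, was at 0.06 in Control replicate 1 and 2.09 in Control replicate 4, and at 3.45, 2.65 and 3.15 in SIGLEC12, a difference of 2.01 (SE 0.58, limma adjusted p = 0.0980), and 1.73 after rescaling. Timp3 was at 1.13 and 2.19 in Control and at 3.12, 2.21 and 2.68 in SIGLEC12, a difference of 1.01 (SE 0.38, limma adjusted p = 0.127), and 0.61 after rescaling. Both were lowest in Control replicate 1, and both passed the unadjusted threshold. Mmp14, a membrane-bound collagenase, differed by 0.91, and by 0.43 after rescaling.

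Of 8 tested matrix genes whose proteins bind collagen, 7 were higher and 1 lower, and 4 did not overlap. Their median of 0.996 became 0.62 after rescaling, where only Dcn, Sparc and Bgn did not overlap. Dcn, a proteoglycan that coats fibrils and is also 1 of the fibroblast markers above, was at 1.60 and 2.45 in Control and at 4.57, 3.43 and 3.33 in SIGLEC12, a difference of 1.75 (SE 0.44, limma adjusted p = 0.0974), and 1.30 after rescaling. Sparc, a collagen-binding glycoprotein, and Bgn, another proteoglycan, differed by 1.27 and 1.08, or 0.82 and 0.73 after rescaling, and also passed the unadjusted threshold. Fn1, fibronectin, differed by 1.07, and by 0.64 after rescaling. Each of these 4 was highest in SIGLEC12 replicate 2. Tgfbi, the lower gene of the list, differed by -0.28, or -0.75 after rescaling, and was highest in Control replicate 1.

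Collagen receptors gave 3 tested genes, all higher and without overlap as deposited: Itgb1 (0.89), Ddr1 (0.38) and Itga2 (0.89). Their rescaled differences were 0.37, -0.10 and 0.54, and there only Itgb1 did not overlap. Of the partners of type IV in basement membranes, 10 were tested and all 10 were higher, 5 of them without overlap, with a median of 0.52. After rescaling 6 of the 10 were higher and the median was 0.24. Of the 5 without overlap, Lamb1 and Nid1 passed the filter through SIGLEC12 tumors alone, and only they did not overlap on the rescaled values. Lamb3 and Lama3, which encode laminin chains of epithelial basement membranes, differed by 1.11 and 0.91, or 0.62 and 0.43 after rescaling, and both were lowest in Control replicate 1 and highest in SIGLEC12 replicate 4. Among the collagens, Col4a1 was highest in SIGLEC12 replicate 2, and Col17a1 was highest in Control replicate 1 and lowest in SIGLEC12 replicate 4.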

How the data were processed

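RNA-Seq was performed on colon tumors of 2 Control and 3 SIGLEC12 mice. The authors deposited 1 table of log2(TPM + 1), with 52143 rows and 5 value columns, and 0 columns could not be mapped to a sample. Per the labels' processing notes kallisto 0.45.0 and GRCm38 were used, and the libraries came from a stranded total RNA kit. The study's methods name an mRNA kit, a human reference and technical replicate libraries, and whether a column averages these is not given in the sources used here. TPM keeps no depth, so the reads behind each value cannot be counted and error is given between mice only. The series describes 3 mice per condition, and 1 Control mouse was not analysed here.

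Positions came from GENCODE release M21, which held 98.29% of the gene identifiers. Genes with a TPM of at least 1 in at least 2 samples (10338) were tested by limma 3.58.1 in R 4.3.3 (lmFit, eBayes with trend, no covariate), with Benjamini-Hochberg adjustment. With a pseudocount of 1, differences of low genes are compressed. The thresholds were an adjusted p under 0.05, or an unadjusted p of at most 0.05 as in the study's wording, each with 2-fold. Single values were compared by a two-sided exact permutation test over the 10 possible assignments of samples to groups, whose smallest p is 0.1. The fit was tested on simulated data. Rescaled values set each sample to the mean protein-coding TPM total. Alternatives were the 2 rescalings (1 with the trend on transcript length taken out), omission of the filter, a TPM minimum of 5, a pseudocount of 0.1, and each sample left out.

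Members, classes and gene lists were chosen with earlier results of these data known, so no list was tested as such. The rule for named genes took every tested member, per-sample values for the 14 highest by mean TPM, the 3 others with the largest difference and any member at least 2-fold above the rest in SIGLEC12 replicate 2, the highest value of each untested member, and from each partner list the 3 highest by mean TPM and those past the unadjusted threshold with 2-fold. A single gene that this rule takes is not reported here. Serpinh1 and Tgfbi were named after their values were seen. Glial and macrophage markers were also listed: glial markers stayed between 0.04 and 0.08 in mean log2(TPM + 1), and macrophage markers between 0.52 and 1.45.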

Additional observations from a re-analysis of the deposited data

How the results depend on the processing

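No paired analysis was possible because Control and SIGLEC12 have 1 replicate number in common. The number of collagen genes lower at an adjusted p under 0.05 and 2-fold was 0 in every fit but the one without Control replicate 4, where Col17a1 made it 1, so the range with 1 sample left out was 0 to 1. None was higher at that threshold under any alternative run. At the unadjusted threshold the 2 higher genes became 1 after rescaling and 1 with the trend on transcript length taken out as well, in both cases Col4a1. With 1 sample left out the range was 1 (Col4a1, without Control replicate 1) to 5 (without SIGLEC12 replicate 3, with Col1a1, Col1a2 and Col4a2 added). Without Control replicate 4 the 2 genes were Col4a1 and Col4a2. The 1 lower gene, Col17a1, became 0 without the filter and 0 to 1 with 1 sample left out, lost without Control replicate 1, SIGLEC12 replicate 3 or SIGLEC12 replicate 4. The type IV median of 1.18 became 1.70 with a pseudocount of 0.1 and -0.018 without the filter, where the 4 low chains enter. The median of the other collagens turned from 0.34 to -1.19 with a filter of TPM at least 5, which leaves Col17a1 alone. Col12a1 turned from 0.15 to -0.15 after rescaling, -0.12 without Control replicate 4 and -0.16 without SIGLEC12 replicate 2, in a range of -0.16 to 0.41 with 1 sample left out. Col18a1 turned from 0.27 to -0.084 after rescaling and -0.20 without Control replicate 4, in a range of -0.20 to 0.75. The sum of the other collagens turned from -0.25 to 0.40 without Control replicate 1. The cause was not tested. The other 9 tested genes kept their direction under each alternative that gave a value. Leaving out a Control leaves 1, which is assumed to vary like the others. The count of members highest in SIGLEC12 replicate 2 after rescaling was added after seeing the data. Unknown read depth limits what can be said of the 33 low genes.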
